A study of Rattus norvegicus with 8 samples.

Results

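Long non-coding RNA (lncRNA) genes were represented in the rat hypothalamus by 2030 polyadenylation sites from 793 genes, out of 73922 sites and 12255 genes in the whole table. Every site whose biotype field read lncRNA was taken, except the sites of RGD1566401 and LOC108351197, which together held most of the lncRNA reads, and the reads of a gene were also summed over its sites. With those genes kept, the table held 2124 lncRNA sites of 795 genes.

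Long non-coding RNAs are transcribed and often polyadenylated like messenger RNA but code for no known protein. Some act in the nucleus as scaffolds or guides for chromatin and splicing factors, some bind proteins or ribosomes in the cytoplasm, and others are mainly known as the precursors from which microRNAs or small nucleolar RNAs are cut. The brain expresses many of them, often at low levels and in few cell types, and most rat lncRNA genes carry only a locus number.

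The tissue was hypothalamus from 8 rats, all adult males of the outbred Long-Evans strain. The 4 control rats ate standard rodent chow, the 4 obesity rats had free access to a high fat diet, and brains were taken after 36 days, so the comparison is between diets. The labels name no transgene or drug in either group. One library per rat was made by whole transcriptome termini site sequencing (WTTS-seq), which reads the 3′ end of polyadenylated RNA and so counts transcripts by where they end, with 1 end per transcript whatever its length.

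The 8 libraries held 1417531 to 1957726 reads each. A read in every library was seen at 1081 of the 2030 lncRNA sites (53.3%), against 54.9% of protein-coding sites, and control library 1 had 405 lncRNA sites at 0 reads where the other libraries had 117 to 270. The median lncRNA site rested on 54 reads over all 8 libraries, and the median lncRNA gene on 91 reads against 265 for a protein-coding gene. The within-group SD of log2 abundance was 0.861 for the median lncRNA gene and 0.586 for the median protein-coding gene. Markers of the tissue were present, with 11 of 12 hypothalamic genes measured. Their summed level was 1217.5 to 1636.4 counts per 1000000 reads (CPM) in control and 1019.4 to 1269.1 CPM in obesity libraries. Of 4 choroid plexus markers 1 was measured, at 0 to 1.49 CPM in control libraries and 0 to 95.2 CPM in obesity libraries, and 4 of 6 anterior pituitary markers summed to 39.1 to 89.7 and to 8.59 to 183 CPM. Oligodendrocyte markers (6 of 6) summed to 15236 to 20299 CPM in control and 11926 to 18744 CPM in obesity libraries, astrocyte markers (5 of 5) to 1583 to 2263 and 1231 to 1877, microglial markers (3 of 5) to 79.8 to 115 and 34.2 to 94.5, and thalamic markers (4 of 4) to 138 to 219.9 and 89.8 to 247. Their part in the results below was not tested, and in whole tissue fewer cells of a type and less RNA per cell cannot be told apart.

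Several of the members hold, on their own strand, the hairpins of microRNAs known for their roles in neurons and glia. They are called hosts here by that position alone, and whether the microRNAs are cut from them was not tested. By RefSeq (GRCr8), 347 of the 793 genes could be matched by name or gene number, 327 of them still annotated as lncRNA and 13 now as protein-coding, and 12 of the matched genes held a microRNA hairpin on their own strand, 18 hairpins in all. The mature sequences of 9 of the hosts are given here, leaving out Ftx and the little-read LOC103692514 and LOC108352923, from RefSeq, 5′ to 3′. The seed (bases 2 to 8) is in capitals, because it is the part of a microRNA that pairs with its targets. It so shows which of the printed microRNAs have a seed in common. The 5p sequences of miR-99a, inside LOC103693508, and of miR-125b-1, inside Lnc215, were not found, so seeds they share with others are not shown.
miR-9a-5p, inside LOC100911992 and again inside LOC102555346: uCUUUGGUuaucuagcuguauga
miR-384-5p, inside LOC103690870: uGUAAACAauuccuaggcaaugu
miR-325-3p, inside LOC103690870: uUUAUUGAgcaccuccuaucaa
miR-100-5p, inside Lnc215: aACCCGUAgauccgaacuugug
let-7a-5p, inside Lnc215: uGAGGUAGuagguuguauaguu
let-7c-5p, inside LOC103693508: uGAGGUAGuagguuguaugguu
miR-29b-3p, inside LOC102550527: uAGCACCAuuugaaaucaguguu
miR-29c-3p, inside LOC102550527: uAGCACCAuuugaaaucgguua
miR-135a-5p, inside LOC102548260: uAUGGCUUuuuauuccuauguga
miR-138-5p, inside LOC103690480: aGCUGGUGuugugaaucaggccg
miR-342-3p, inside LOC102555052: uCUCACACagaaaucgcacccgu
Let-7a and let-7c, from different hosts on different chromosomes, had the seed GAGGUAG in common, and miR-29b and miR-29c, from the same host, had AGCACCA. The same mature miR-9a was encoded by hosts on chromosomes 1 and 2.

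A small number of genes supplied much of the lncRNA signal. Reads at lncRNA sites summed to 226635, which was 1.7% of the 13341135 reads, while lncRNA sites were 2.75% of all sites and lncRNA genes 6.47% of all genes. The 10 most abundant lncRNA genes held 27.3% of these reads and the 50 most abundant 53.5%. At the other end, 424 of the 793 genes (53.5%) had fewer than 100 reads over all 8 libraries, and 37 genes had more than 1000.

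The part of each library that came from these lncRNA sites varied little. In order of library number, here and below, it was 1.62%, 1.72%, 1.59% and 1.71% of reads in the control group and 1.72%, 1.60%, 1.80% and 1.77% in the obesity group. The ranges overlapped, and the means of 1.66% ± 0.0656 and 1.72% ± 0.0878 (SD, n = 4 each) differed by 0.0603 percentage points, less than the SD of either group. With RGD1566401 and LOC108351197 kept, lncRNA sites held 4.09% to 5.77% of reads in control and 5.64% to 7.32% in obesity libraries, with means of 5.08% ± 0.763 and 6.42% ± 0.872, higher in the obesity library of 4 of 4 numbers. So the narrow range holds only without those genes. Bc1, the most abundant member, was on average lower in the obesity group, and without it the means were 1.51% ± 0.0838 and 1.63% ± 0.0865, still with overlapping ranges. Without the 10 most abundant genes they were 1.18% ± 0.0387 and 1.28% ± 0.0701.

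Bc1 was the most abundant on average, with 16040 reads or 7.08% of all lncRNA reads. It is a brain cytoplasmic RNA made by RNA polymerase III, found in neuronal dendrites, where it holds back translation. Its single site was on chromosome 1 (plus strand, 218075460 to 218075523 on Rnor_6.0). RNA polymerase III genes carry their promoter inside the transcript, and the first bases of Bc1 are printed for that reason, from 50 bases before to 50 after its RefSeq start (GRCr8, chr1:209502847-209502946, plus strand), with the core of the internal promoter's A box in capitals.
Bc1: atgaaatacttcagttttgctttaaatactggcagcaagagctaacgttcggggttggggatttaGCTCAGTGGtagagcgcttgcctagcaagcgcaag
The capitals, GCTCAGTGG, began 16 bases into the RNA. These letters were found on either strand in 1.78% of the 33469 RefSeq promoter windows of 300 bases and in 7 of the 523 windows of lncRNA members (1.34%), and a match is not a promoter by itself. The sequence of Bc1 is also related to the ID repeats scattered through the rat genome, so reads from such copies could have been counted for it, and its level carries that uncertainty.

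Bc1 was at 1999, 1322, 1779 and 1723 CPM in control and at 1546, 945, 1241 and 733 CPM in obesity libraries. Obesity libraries 2 to 4 were below every control library, obesity library 1 lay among them, and the obesity library was the lower of the same-numbered pair in 4 of 4 pairs. The means were 1706 ± 282 and 1116 ± 355 CPM (SD, n = 4 each). The log2 fold change was −0.61 ± 0.23 (SE) and did not pass (unadjusted p = 0.015, adjusted p = 0.904, edgeR quasi-likelihood test over all genes). With the library number as a block, it passed the threshold of an adjusted p under 0.1 (log2 fold change −0.65, adjusted p = 0.094). That call was lost without both libraries numbered 3 (adjusted p = 0.263) or both numbered 4 (0.61), and kept without those numbered 1 (0.096) or 2 (0.00587). Over all fits run, the adjusted p ran from 0.00587 to 1.0 and the log2 fold change from −0.81 to −0.45. In the fit of single sites with the block, Bc1 did not pass (log2 fold change −0.71, adjusted p = 0.302).

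The next 9 genes by abundance lay between 318 and 632 CPM in group means and differed little between the groups. LOC103691231 (chromosome 1, 17 sites) varied most: 294, 1042, 359 and 707 CPM in control and 544, 852, 419 and 714 CPM in obesity libraries. Its high and low libraries had the same numbers in both groups, 2 and 4 high, 1 and 3 low, and in obesity libraries 2 and 4 it came close to Bc1. LOC102547903 (chromosome 1, 70043289 to 70210529, minus strand) lies between Usp29 and Peg3, 2.36 kb from the nearest site of the former and 4.24 kb from that of the latter, both imprinted genes in rodents. It was at 389, 454, 326 and 419.5 CPM in control and 503, 357, 536 and 494 CPM in obesity libraries, and its log2 fold change was 0.25 ± 0.20 (SE, with an adjusted p of 0.928 by edgeR).

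LOC103691695 (chromosome 2, 231548255 to 231708719, minus strand) was the one of the 10 whose groups did not overlap. It was at 314, 329, 301 and 326 CPM in control and at 431, 349, 446 and 423 CPM in obesity libraries. Every obesity library was above every control library, by a log2 fold change of 0.38 ± 0.18 (SE; unadjusted p = 0.0534, adjusted p = 0.904, edgeR), which did not pass. LOC102555617 and LOC103691146, neighbours on chromosome 1, had log2 fold changes of 0.01 and 0.00, and LOC102556677 on chromosome 20 one of 0.21, each with an adjusted p above 0.9 (edgeR). Below Bc1, neighbours in the order of mean CPM differed by less than the larger of their SDs over 8 libraries, except LOC100911992 and LOC103690870.

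**Figure D1:**
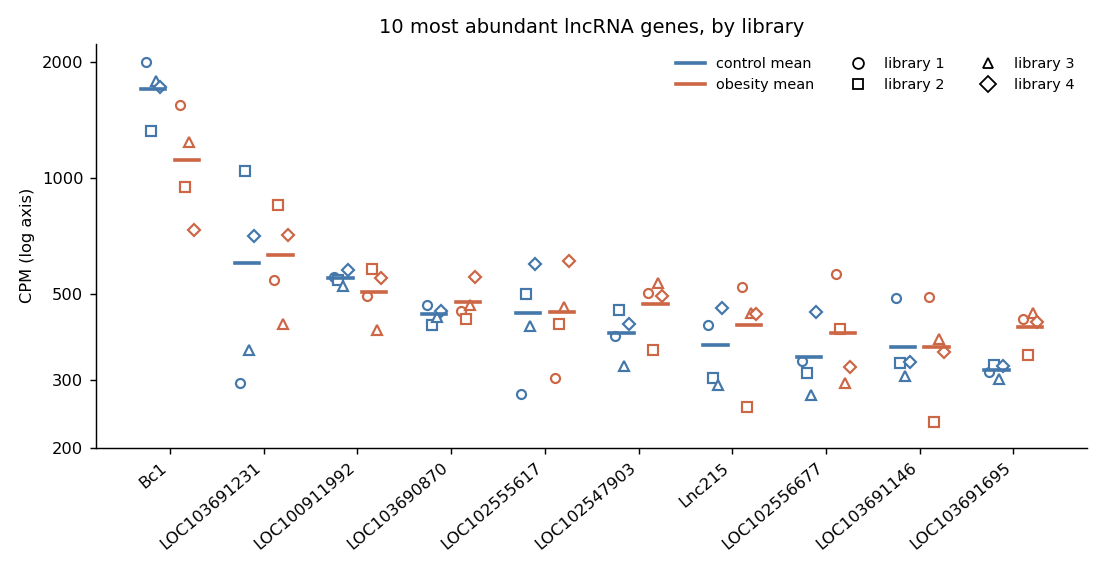
Level of the 10 most abundant lncRNA genes in each library, in CPM on a log axis. Symbols are libraries by number, bars are group means of 4 libraries. Bc1 has the highest group means, with libraries from 733 to 1999 CPM that overlap those of LOC103691231, and LOC103691695 is the only one of the 10 whose obesity libraries all lie above its control libraries.

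The microRNA hosts covered a wide range of abundance. LOC100911992, the host of miR-9 on chromosome 2, was at 554, 543, 526 and 578 CPM in control and 494, 582, 404 and 551 CPM in obesity libraries, and LOC102555346, named Mir9-3hg in RefSeq, at 73.5, 81.3, 79.1 and 69.2 CPM and 98.7, 68.3, 52.1 and 73.4 CPM. Both had overlapping groups, with log2 fold changes of −0.12 and −0.05. MiR-9 is a neural microRNA of progenitors and neurons, and in 3′ ends the host on chromosome 2 was by far the more abundant.

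LOC103690870 on the X chromosome, the host of miR-384 and miR-325, was at 469, 416, 436 and 452 CPM in control and 453, 431, 469 and 554 CPM in obesity libraries. Lnc215 on chromosome 8, which holds the miR-100, let-7a-2 and miR-125b-1 hairpins, was at 417, 304, 290.4 and 461 CPM in control and 521, 255, 446 and 445 CPM in obesity libraries. Obesity library 2 was the lowest of all 8 for Lnc215, and the groups overlapped in both hosts. LOC103693508, whose let-7c has the same seed as let-7a, was far lower, with means of 24.3 ± 4.58 and 24.4 ± 7.47 CPM (SD, n = 4 each).

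LOC102548260 on chromosome 7, the host of miR-135a, was at 297, 270.5, 315 and 295 CPM in control and at 379, 342, 395 and 364 CPM in obesity libraries. The groups did not overlap, and the log2 fold change was 0.33 ± 0.18 (SE; unadjusted p = 0.0826, adjusted p = 0.907, edgeR). LOC102555052 on chromosome 6 (132523815 to 132542429, plus strand), the host of miR-342 and inside the span of Evl, a regulator of actin filaments, was at 5.65, 9.68, 10.2 and 5.95 CPM in control and at 14.8, 11.1, 16.4 and 35.7 CPM in obesity libraries. Its groups did not overlap either. Obesity library 4 was the highest, and the log2 fold change of 1.31 ± 0.51 (SE) did not pass (unadjusted p = 0.0191, adjusted p = 0.904, edgeR). Without that library it was 0.84 (unadjusted p = 0.141, adjusted p = 0.998, edgeR).

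The host of miR-29b and miR-29c, LOC102550527, was at 74.9 to 99.4 CPM in control and 50 to 164 CPM in obesity libraries, with library 2 the lowest and 3 the highest of the latter. LOC103690480, the host of miR-138, had means of 67.4 ± 4.43 and 77.0 ± 18.1 CPM. LOC103692514, the host of miR-34a, and LOC108352923, which holds miR-3546, had 49 and 54 reads in all. Over the 12 hosts, 8 had a positive log2 fold change and the median was 0.14, beside 0.17 for all lncRNA genes, and none passed the adjusted threshold.

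Most lncRNA genes ended at 1 place, and a few at many. A single site was counted for 428 genes (54.0%, against 28.8% of protein-coding genes), 2 or more for 365 and 10 or more for 37. LOC102547903 had 42 sites, LOC103691695 had 38 and Lnc215 had 33. In these 3 genes no end dominated: the most used site held 11.3%, 15.6% and 10.3% of the gene's reads. In contrast, the most used of the 11 sites of Miat held 48.2% of its reads and that of the 5 sites of Gas5 52.2%. Sites on both strands occurred in 51 genes, where 63 sites with 4095 reads lay on the less used strand. These reads may belong to an antisense neighbour, and they were kept in the gene sums.

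Across all 793 genes, lncRNA abundance was more often higher than lower in the obesity group, by small amounts. The log2 fold change was above 0 in 496 genes (62.5%) and the median was 0.17, against 50.8% and 0.01 over all 12255 genes and 0.01 over the 10746 protein-coding genes. The median stayed positive, between 0.09 and 0.22, in every alternative fit. Per library, the median lncRNA gene deviated from its own mean over the 8 libraries by 0.03, 0.04, −0.08 and 0.10 on the log2 scale in the control group and by 0.22, −0.03, 0.16 and 0.19 in the obesity group. Obesity libraries 1, 3 and 4 were above every control library, and obesity library 2 was below controls 1, 2 and 4, so the groups overlapped. For protein-coding genes the same deviations all lay between 0.01 and 0.06. The percent of reads from the mitochondrial genome tended the opposite way to these values: it was 5.32, 5.94, 8.27 and 6.23 in control and 4.29, 6.99, 3.86 and 4.34 in obesity libraries. Obesity libraries 1, 3 and 4, with the highest lncRNA medians, had the lowest mitochondrial percentages, and control library 3 and obesity library 2, with the lowest medians, had the highest. The part of this in the shift was not tested.

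**Figure D2:**
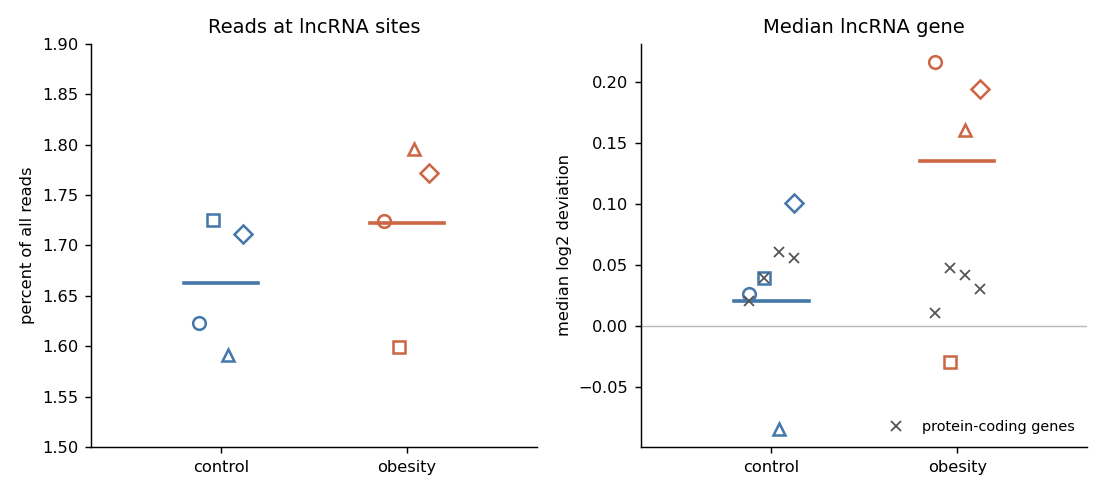
Left, percent of all reads at lncRNA sites per library, on an axis that does not start at 0. Right, the median over 793 lncRNA genes of the log2 CPM (with 0.5 added) minus the gene's mean over 8 libraries, with crosses for protein-coding genes. Symbols are library numbers and bars group means. Obesity libraries 1, 3 and 4 lie above all control libraries on the right, and obesity library 2 does not.

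**Figure D3:**
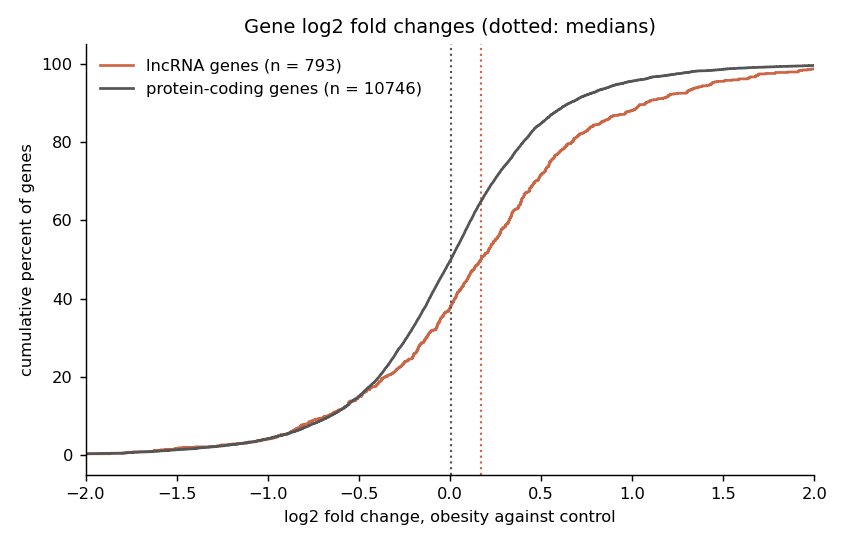
Cumulative percent of genes by log2 fold change, obesity against control, for 793 lncRNA and 10746 protein-coding genes, with the axis limited to 2 log2 units in each direction. Dotted lines are the medians, 0.17 and 0.01. The lncRNA curve lies to the right over most of its range.

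The medians were also taken by position. From the spans of sites on Rnor_6.0, 206 lncRNA genes lay inside a protein-coding gene on the same strand, 19 inside one on the opposite strand, 35 within 5 kb downstream of one on the same strand, and 533 in none of these positions. The genes inside a same-strand gene had a median log2 fold change of 0.28 with 147 of 206 above 0 (71.4%), and the 183 protein-coding genes around them had a median of 0.15 with 133 above 0 (72.7%). The genes in none of these positions had a median of 0.13 (320 of 533 above 0). The 35 downstream genes went the other way, with a median of −0.14 and 16 above 0. A site inside a same-strand gene cannot be told by its position from an end of that gene, and the part of such reads was not tested.

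By number of ends, the 78 lncRNA genes with 5 or more sites had a median of 0.22 with 60 above 0 (76.9%), and protein-coding genes with 5 or more sites 0.08 with 60.0% above 0. Among genes with 1 site, 61.0% of lncRNA genes and 43.2% of protein-coding genes were above 0. In abundance, the 37 lncRNA genes with over 1000 reads had a median of 0.21 with 29 above 0, the 332 with 100 to 1000 reads 0.14, and the 424 with fewer than 100 reads 0.22. These medians describe the libraries and carry no test.

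No single lncRNA gene passed the adjusted threshold (0 of 793, against 0.0% of all genes, edgeR quasi-likelihood test), and none by DESeq2 (against 3 of all 12223 genes tested). At an unadjusted p under 0.05 there were 37, of which 27 were higher in the obesity group (3.40%, against 2.77% of all genes) and 10 lower (1.26%, against 2.52%). DESeq2 gave 44 (5.56%, against 742 of all 12223 genes tested). The groups did not overlap in 20 genes that were higher (2.52%, against 1.84%) and 4 that were lower (0.504%, against 1.67%). With the library number as a block, 1 gene passed, Bc1 (0.126%, against 0.122% of all genes), and 68 had an unadjusted p under 0.05, 49 of them higher (6.18%, against 5.03%) and 19 lower (2.40%, against 5.83%). The percentages of higher genes were near those of the table as a whole, and those of lower genes were below them.

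Of the genes with no overlap, an unadjusted p under 0.05 and at least 10 normalized reads on average, 6 were higher (0.757%, against 0.792% of all genes) and 2 lower (0.252%, against 0.906%). LOC108352195 (chromosome 10, 9229809 to 9232551, minus strand, 2 sites) lies inside the span of Rbfox1, a neuronal splicing regulator. It was at 14.1, 11, 18 and 19.3 CPM in control and at 26, 27.8, 39.1 and 39.6 CPM in obesity libraries, a log2 fold change of 1.09 ± 0.36 (SE; unadjusted p = 0.00807, edgeR). The lowest obesity library was above the highest control library.

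LOC108352789 (chromosome 14, 86213207 to 86213548, minus strand) lies inside the span of Camk2b, which codes for a calcium-dependent kinase of synapses. It was at 14.8, 34.2, 15.7 and 25.3 CPM in control and at 54.9, 41.3, 46.4 and 37.7 CPM in obesity libraries, with a log2 fold change of 0.99 ± 0.35. LOC108348797 (chromosome 18, 57663412 to 57666773, plus strand), inside the span of the serotonin receptor gene Htr4, was at 3.53, 14.8, 7.04 and 13.4 CPM in control and at 33.4, 19.1, 21 and 15.2 CPM in obesity libraries. Here the highest control and the lowest obesity library nearly met, and the log2 fold change was 1.18 ± 0.50. With LOC102555052 inside Evl, 4 of the 5 higher genes with the smallest p lay inside a same-strand gene, as did 206 of the 793 lncRNA genes.

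The exception was LOC108350833 (chromosome 4, 58359290 to 58372799, minus strand, 7 sites), which lay in no such span. It was at 54.4, 81.3, 66.5 and 66.2 CPM in control and at 92.8, 96.1, 117 and 119.6 CPM in obesity libraries, with a log2 fold change of 0.66 ± 0.23. It was the most abundant of these higher genes, with 1011 reads.

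Of the lower genes, LOC102548924 (chromosome 1, 32321569 to 32321598, minus strand) was at 43.8, 61.3, 49.3 and 70.7 CPM in control and at 17.1, 15.1, 32.8 and 0 CPM in obesity libraries. Obesity library 4 had 0 reads where the other obesity libraries had 19 to 58 and the control libraries 62 to 95, and the log2 fold change was −1.77 ± 0.67 (unadjusted p = 0.0211 by edgeR and 0.0634 by DESeq2). It was −1.36 without obesity library 4 and −2.41 without obesity library 3. LOC108352127 (chromosome 10, 85789112 to 85790543, plus strand, 4 sites) lies within 5 kb downstream of Lasp1, which codes for an actin-binding protein. It was at 102, 80.1, 72.8 and 93 CPM in control and at 46, 58, 61.7 and 70.7 CPM in obesity libraries, with a log2 fold change of −0.55 ± 0.25. The adjusted p was 0.904 for each of these 7 genes in the fit without the block (edgeR), and with the block it lay between 0.207 and 0.378. In the blocked fit without both libraries numbered 2, LOC108350833 (0.0474) and LOC108352789 (0.0541) passed, and without any other number neither did.

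**Figure D4:**
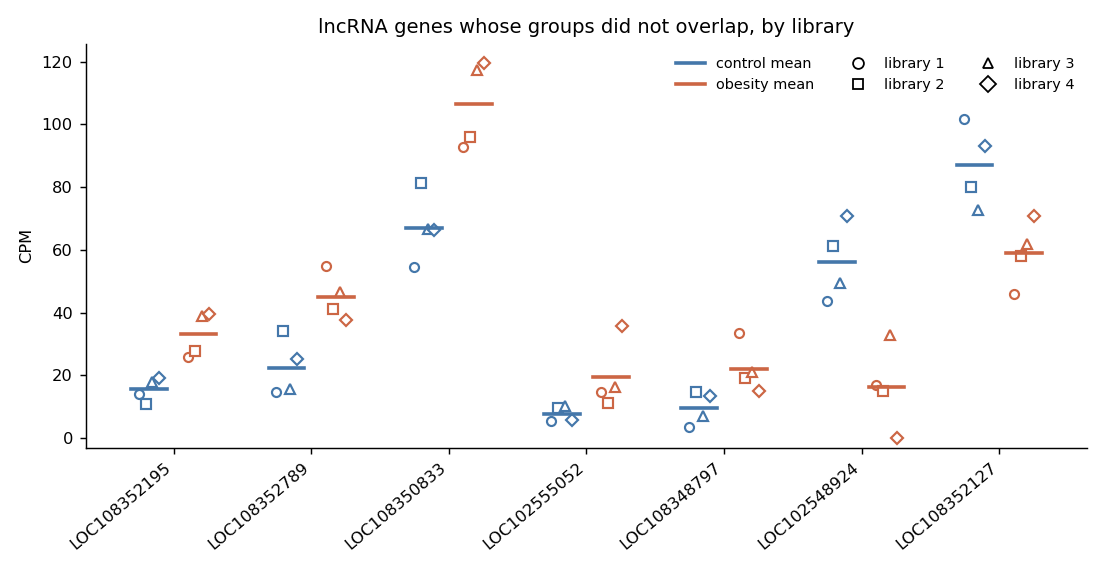
Level in CPM per library of the 5 higher and 2 lower lncRNA genes named by the rule on groups without overlap. Symbols are library numbers and bars group means of 4 libraries. In each gene every obesity library lies on 1 side of every control library, at an adjusted p of 0.904.

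Among single sites no lncRNA site passed either. None of the 2030 sites passed (0.00135% of all sites did, which was 1 site), and none passed by DESeq2 (against 10 of all 73330 sites tested). At an unadjusted p under 0.05 there were 51 sites, 34 higher (1.67%, against 1.72% of all sites) and 17 lower (0.837%, against 1.41%). DESeq2 gave 62 (3.08%, against 2831 of all 73330 sites tested). The groups did not overlap at 23 higher sites (1.13%, against 1.43%) and 29 lower sites (1.43%, against 1.69%). The block left 0 lncRNA sites past the threshold (0.00541% of all sites passed) and gave 103 at an unadjusted p under 0.05, 67 higher (3.30%, against 2.79%) and 36 lower (1.77%, against 3.31%). The percentages of higher sites, with or without the block, and of sites without overlap were near those of the table as a whole. Those of lower sites at an unadjusted p under 0.05 were below them. The median site log2 fold change was 0.09, against 0.05 over all sites.

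No overlap, an unadjusted p under 0.05 and at least 10 normalized reads on average were found together at 5 higher sites (0.246%, against 0.289% of all sites) and 5 lower sites (0.246%, against 0.444%). The higher site with the smallest p belonged to LOC108351712 (chromosome 8, 63239802 to 63239892, plus strand) and had 10, 7, 8 and 5 reads in control and 111, 36, 15 and 12 reads in obesity libraries. Obesity library 1 carried most of the difference, and the log2 fold change was 2.42 ± 0.69 (SE; unadjusted p = 0.0035) with it and 1.45 without it. A site of LOC103691695 (chromosome 2, 231599834 to 231599838, minus strand), the most used of its 38, had 72, 41, 38 and 51 reads in control and 106, 60, 187 and 105 reads in obesity libraries, a log2 fold change of 1.02 ± 0.37. The higher sites of LOC108351514, LOC108348297 and LOC102552958 had log2 fold changes of 2.11, 1.99 and 1.16 on 86, 90 and 135 reads. That of LOC108351514 rested on obesity library 3, with 40 of its 72 obesity reads, and was 1.47 without it.

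The lower site with the smallest p belonged to LOC108352745 (chromosome 14, 42372229 to 42372257, minus strand), with 49, 35, 32 and 39 reads in control and 15, 16, 19 and 5 reads in obesity libraries, a log2 fold change of −1.59 ± 0.48 (unadjusted p = 0.00497). No obesity library reached the lowest control library. In the miR-9 host LOC100911992, 1 of the 20 sites (chromosome 2, 187593172 to 187593200, plus strand) had 244, 146, 136 and 130 reads in control and 116, 100, 113 and 94 reads in obesity libraries, a log2 fold change of −0.73 ± 0.31, while the gene as a whole had one of −0.12. A minor site of LOC102556677 and the single sites of LOC102548924 and LOC100912305 completed the 5, with log2 fold changes of −1.16, −1.83 and −0.97. The adjusted p of all 10 sites was 1.0 (edgeR).

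Whether the groups ended the same RNA at different places was asked in the 365 lncRNA genes with 2 or more sites. No gene passed (0.0121% of all 8276 genes did, which was 1 gene outside this class), and 4 had an unadjusted Simes p under 0.05 (1.10%, against 1.84% of all genes). The smallest Simes p was that of LOC102551133 on the X chromosome (0.0064, adjusted p = 1.0, diffSpliceDGE of edgeR). The site nearest its 5′ end held 0, 0, 0 and 1 reads in control and 3, 4, 25 and 0 reads in obesity libraries, so obesity library 3 gave most of them. The Simes p was 0.122 without that library and 0.0565 with the library number as a block (diffSpliceDGE of edgeR, adjusted p = 1.0 with the block).

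In LOC108348766 (chromosome 18, 28759085 to 28759749, plus strand) the second of 2 sites had 0 reads in each control library and 6, 3, 17 and 6 reads in obesity libraries. That was at least 9.89-fold higher per read of depth, against a floor of 3 reads over the control group. Reads at this site were 31.6%, 100%, 85% and 75% of the gene's reads in obesity libraries 1 to 4. The gene had 19 control reads and 50 obesity reads in all, and its Simes p was 0.00847 (adjusted p = 1.0, diffSpliceDGE of edgeR). In LOC102546835, a site on the less used strand had 72 reads in obesity library 1 and 0 to 7 in the others, and its Simes p was 0.0143 with that library and 0.591 without it (diffSpliceDGE of edgeR, adjusted p = 1.0 with it).

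On chromosome 1, 13 lncRNA genes lay in the 6.31 Mb between Ube3a and Ndn. This stretch matches part of the imprinted Prader-Willi and Angelman region of humans, which holds long transcripts expressed in neurons. They were picked by position after the map had been seen. Only 3 of the 18 genes of the table in this stretch were protein-coding. The 13 held 18726 reads, and LOC102555617, LOC103691146 and LOC102552061 were the most abundant, with means of 447, 365 and 319 CPM in control libraries. LOC102552061 was at 194, 596, 243 and 242 CPM in control and 356, 507, 286 and 343 CPM in obesity libraries, high in number 2 of both groups.

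The strand of a gene is here the one with most of its reads, which was minus for the sites labelled Ube3a. Of the 10 lncRNA genes on the minus strand, 9 had a log2 fold change above 0. So had 62.5% of all lncRNA genes and 76.9% of those with 5 or more sites. The median of the 10 was 0.23 against 0.17 for all lncRNA genes, and 0 of them had an unadjusted p under 0.05 (edgeR). LOC102553228, a single site on the plus strand (118137526 to 118137546), had the largest log2 fold change of the 13. It was at 17, 19.4, 15.7 and 33.5 CPM in control and at 37.1, 39.7, 25.5 and 48.9 CPM in obesity libraries, a log2 fold change of 0.82 ± 0.36 (SE; unadjusted p = 0.0366, adjusted p = 0.904, edgeR). Control library 4 lay within the obesity range. Ube3a itself, a ubiquitin ligase gene silenced on the paternal allele in neurons, had means of 2187 ± 198 and 2087 ± 377 CPM, and Ndn 37.6 ± 6.34 and 35.8 ± 15.2 CPM. The level of Ube3a sums its 121 sites whatever their strand, so antisense reads were not told apart from its messenger RNA.

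**Figure D5:**
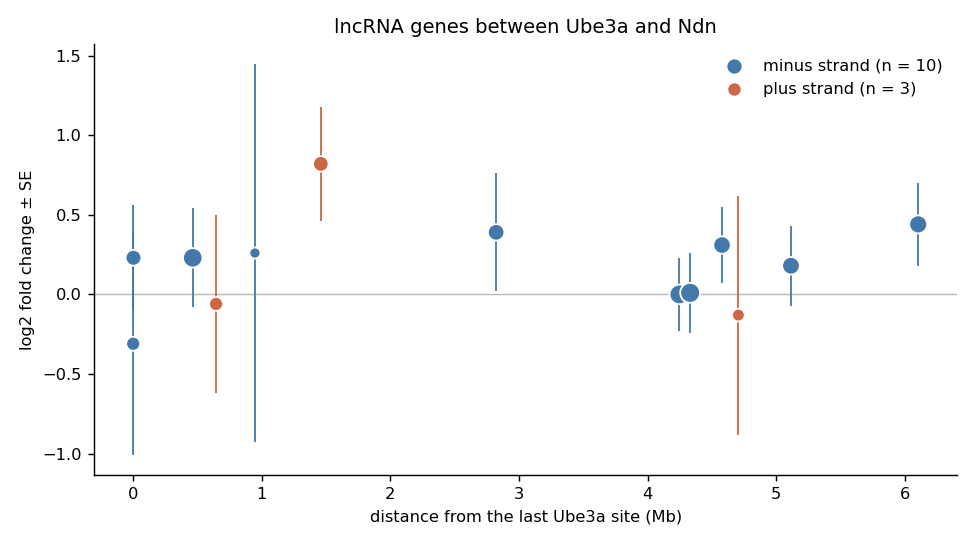
log2 fold change (obesity against control) of the 13 lncRNA genes between Ube3a and Ndn by distance from the last Ube3a site in Mb. Bars are 1 SE, point size grows with mean CPM and colour gives the strand. The values run from −0.31 to 0.82, and 10 of the 13 lie above 0, as do 62.5% of all lncRNA genes.

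The better known lncRNAs were few in this class. Of 18 hosts of small nucleolar RNAs, 1 was measured among the lncRNA genes, Gas5 (Snhg11 was in the table as a protein-coding gene). Its spliced RNA is known to be degraded with translation and to bind the glucocorticoid receptor. Gas5 (chromosome 13, 5 sites) was at 139, 229.8, 339 and 177 CPM in control and at 149, 216, 178 and 97.1 CPM in obesity libraries. The groups overlapped, with a log2 fold change of −0.47 ± 0.28 (SE, unadjusted p = 0.119, adjusted p = 0.912, edgeR). With the library number as a block it was −0.45 ± 0.18 and did not pass either (unadjusted p = 0.0228, adjusted p = 0.363, edgeR).

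Of 12 nuclear and X-linked lncRNAs, 4 were measured, 3 with log2 fold changes above 0. Miat, a nuclear RNA of neurons that binds splicing factors, was at 309.5, 167, 214 and 273 CPM in control and at 489, 195, 278 and 393 CPM in obesity libraries. In each of the 4 numbers the obesity library was the higher, but the groups overlapped, and the log2 fold change was 0.49 ± 0.27 (unadjusted p = 0.0854, adjusted p = 0.907, edgeR). With the library number as a block it was 0.45 ± 0.15 and did not pass either (unadjusted p = 0.00568, adjusted p = 0.24, edgeR). Ftx and Jpx, regulators of X inactivation in females, were at 25.5 ± 5.82 and 36.3 ± 16.5 CPM and at 2.59 ± 1.99 and 5.79 ± 3.53 CPM. LOC100910827, named Oip5-as1 in RefSeq, was at 67.8, 40, 54 and 61.7 CPM in control and at 40.8, 41.3, 34.5 and 41 CPM in obesity libraries, a log2 fold change of −0.50 ± 0.28 (adjusted p = 0.907, edgeR).

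Of 17 neural and developmental lncRNAs, 2 were measured. Linc01158, listed as Pantr1 in RefSeq, had means of 12.2 ± 6.48 and 8.54 ± 1.07 CPM, and LOC102553190, a RefSeq synonym of which is Lhx1os, 20.4 ± 4.75 and 14.6 ± 5.78 CPM. Of 17 named microRNA host genes Mir9-3hg was the one found, and of 14 imprinted lncRNAs none was among the members. Of 21 proteins that bind, retain or degrade such RNAs, among them the paraspeckle protein Sfpq and the decay factor Upf1, 18 were measured. Their median log2 fold change was −0.03, with 8 above 0, 1 lower at an unadjusted p under 0.05 and none past the adjusted threshold (edgeR).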

How the data were processed

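The authors deposited raw read counts per polyadenylation site, not normalized, on Rnor_6.0. The submitters' processing notes name Bowtie2 2.2.3. The site caller and gene annotation are not given in the sources used here. No deposited site had under 30 reads in all, which shows an earlier filter. A line without a site held a library total and was left out, as was any gene label at 273 sites with a mark in place of a symbol. The columns used here were the 8 of mapped reads.

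Counts per site, and summed per gene, were fitted over the whole table with the quasi-likelihood test of edgeR 4.0.16 (TMM scaling, robust, R 4.3.3) with Benjamini-Hochberg adjustment, and site usage with diffSpliceDGE. An adjusted p under 0.1 was the threshold. CPM is per 1000000 TMM-scaled reads, for genes those at sites with a gene. The SE is the log2 fold change over the root of F. Alternatives were DESeq2 1.42.0, its size factors, filterByExpr, sums over the major strand, a block and leaving out each library. The scripts were tested on simulated counts. The planned permutation test of the share of reads is not printed, since the members and lists were chosen with earlier results of these data known.

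Same-numbered libraries of the groups, numbered 1 to 4 in the labels, deviated together (Pearson r of log2 CPM deviations 0.424 to 0.596 over 14110 sites, against −0.325 to −0.00913 for different numbers). The main fit had no block, and the fit with the number as a block was an alternative. That fit is given where it changed a call at the adjusted threshold or a count, and for some named genes. What a number shares is not given in the labels. No 2 libraries agreed within sampling noise (chi-square per site 2.86 or more over 28 pairs). Each library is from a separate rat by the design text, and p-values measure the spread between these 8 samples. Reads had no molecular identifiers, so the floor of 3 reads covers counting error only. Priming inside A-rich RNA was not checked, since it needs the genome sequence of that build.

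Named items were the 10 most abundant genes, up to 5 sites and 5 genes in each direction with the smallest p among those with at least 10 normalized reads on average, an unadjusted p under 0.05 and no overlap, the 3 genes with the smallest Simes p, the 3 with the most sites, and measured list members. MicroRNA hosts and the genes between Ube3a and Ndn were chosen by position, after values were seen.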

Additional observations from a re-analysis of the deposited data

Results flagged for a closer look

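Among 86 checks of 4 libraries each, 4 checks had a library that stood apart from the other 3 of its group by Dixon's test. Chance flags about 1 in 20 such groups. Control library 1 had a read in 696 lncRNA genes, where the other control libraries had 753 to 764. The same library had LOC103691146 at 488 CPM, against 307 to 334 in the other controls. For LOC100910827 (Oip5-as1) obesity library 3 was at 34.5 CPM and the others at 40.8 to 41.3, and for LOC102553190 obesity library 4 was at 5.95 CPM and the others at 17 to 18.3.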

How the results depend on the processing

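No lncRNA site, gene or site usage passed the adjusted threshold under DESeq2's size factors, filterByExpr or without any 1 library, nor did a site or gene under DESeq2 or a gene under sums over the major strand. The library number as a block gave 1 gene (Bc1, against 15 of all 12255 genes) and 0 sites and usages. The major strand with the block also gave 1 gene (against 34 of all 12255 genes). Both libraries of a number were also left out of the blocked fit, an alternative added after the data were seen. Without number 1 it gave 1 gene and 0 sites, against 6 of all genes and 4 of all sites. Without number 2 it gave 20 genes (2.52%, against 4.63% of all genes) and 5 sites (0.246%, against 0.495% of all sites). Without number 3 or 4 it gave 0, against 2 and 0 of all genes and 27 and 17 of all sites. At an unadjusted p under 0.05 the 37 genes became 68 with the block (8.58%, against 10.9% of all genes). They became 66 with block and major strand (8.32%, against 1338 of all 12255 genes). The blocked fit without number 2 gave 87 (of 793, against 1853 of all 12255 genes). Without number 1, 3 or 4 it gave 45, 39 and 41 genes. These were 5.67%, 4.92% and 5.17%, against 7.87%, 6.9% and 6.81% of all genes. The 51 sites became 103 with the block (5.07%, against 6.09% of all sites). They became 31 under filterByExpr, of 613 lncRNA sites tested, against 1180 of all 25720 tested. The block without both libraries of number 1, 2, 3 or 4 gave 99, 129, 86 and 72 sites. These were 4.88%, 6.35%, 4.24% and 3.55%, against 5.05%, 7.46%, 4.27% and 4.4% of all sites. The 4 genes by usage became 2 under filterByExpr (of 106 lncRNA genes tested, against 58 of all 4078). With the block there were 9 without number 1 or 2 and 2 without number 3. Of the 365 lncRNA genes tested these were set against 184, 354 and 212 of all 8276 genes. Without 1 library the counts were 30 to 96 sites, 22 to 61 genes and 3 to 14 genes by usage, lowest without obesity library 3 (sites and genes) or control library 3 (usage), and highest without obesity library 2. In those lowest and highest fits the whole table gave 2135 and 4080 of 73922 sites and 528 and 1221 of 12255 genes. By usage it gave 181 and 365 of 8276 genes. Usage also gave 7 without control library 2 or 4 and 8 without obesity library 4, against 162, 184 and 248 of all genes. With all 8 libraries, the block changed no call but that of Bc1. Among the 20 genes without number 2 were LOC108350833 (adjusted p = 0.0474, edgeR), LOC108352789 (0.0541) and LOC103691695 (0.0882). The difference in the share of reads was positive throughout, 0.036 to 0.102 percentage points without 1 library, 0.11 of reads with a gene, 0.0335 outside the mitochondrial genome and 1.34 with RGD1566401 and LOC108351197 kept. The cause of these differences was not tested. Most sites rest on few reads per rat, which limits single-site results.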
